A study of Homo sapiens with 12 samples.

Results

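ZIC genes encode zinc finger transcription factors, and 4 of them, ZIC1, ZIC2, ZIC4 and ZIC5, were followed by gene name through RNA-Seq of human induced pluripotent stem cells (iPSCs) held in 4 culture conditions. They were 4 of 58575 usable genes in the table of read counts and 4 of 60617 genes in the table of TPM (reads per unit of gene length, with equal totals for every library). All 12 libraries came from 201B7, an established iPSC line made from skin fibroblasts, and were harvested on Day 5. Cond 1 was the control culture in StemFit medium. Cond 2, the low nutrient condition, used StemFit that had first been heated to 56 °C for 30 min. Cond 3 used a differentiation medium, DMEM with 10% fetal bovine serum (FBS), MEM NEAA and GlutaMax. The paper describes the heated medium as given from Day 2 and FBS as given on Day 4. Between Cond 2 and Cond 3 the medium and the length of exposure therefore differ together and cannot be told apart. For Cond 4, the physical stimulus, the cells were pipetted 20 times when passaged and then grown as in Cond 1. Each condition had 3 libraries, from wells of 3 plates that are described as technical replicates, so p-values measure the spread between these wells of a single line.

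The ZIC family is named for zinc fingers of the cerebellum. Its members share a block of zinc fingers that resembles that of the GLI factors of Hedgehog signalling, bind DNA and act in the early neural plate, its dorsal midline and the neural crest. ZIC2 is also expressed in pluripotent stem cells, and its loss causes holoprosencephaly, a failure of the forebrain to divide at the midline. ZIC1 and ZIC4 lie side by side in the genome and serve the dorsal neural tube and the cerebellum.

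The 4 genes form 2 head-to-head pairs. ZIC2 (ENSG00000043355, chr13:99981784-99986765, plus strand) and ZIC5 (ENSG00000139800, chr13:99962964-99971767, minus strand) start 10017 bases apart on GRCh38. ZIC1 (ENSG00000152977, chr3:147393422-147510293, plus strand) and ZIC4 (ENSG00000174963, chr3:147386046-147406809, minus strand) have main transcripts that start 2822 bases apart. The main transcripts of ZIC1, ZIC2, ZIC4 and ZIC5 hold 3, 3, 5 and 2 exons. Within each pair the 2 upstream regions face each other across the stretch between the starts. Windows from these regions are shown for ZIC2, ZIC5 and ZIC1. They are the 250 bases before the start site in RefSeq (GRCh38.p14), read 5′ to 3′ on the gene's strand, and they overlap no annotated exon. Capitals mark CCAAT, the box bound by NF-Y, and GGGCGG, the GC box bound by SP1, or their reverse complements ATTGG and CCGCCC, with overlapping matches both counted.
ZIC2 (chr13:99981534-99981783, plus): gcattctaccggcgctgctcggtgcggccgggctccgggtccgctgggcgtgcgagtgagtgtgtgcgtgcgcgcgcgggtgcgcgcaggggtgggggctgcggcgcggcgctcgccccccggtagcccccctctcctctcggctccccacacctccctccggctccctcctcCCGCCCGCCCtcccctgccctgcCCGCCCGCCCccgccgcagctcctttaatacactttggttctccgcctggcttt
ZIC5 (chr13:99971910-99972159, minus): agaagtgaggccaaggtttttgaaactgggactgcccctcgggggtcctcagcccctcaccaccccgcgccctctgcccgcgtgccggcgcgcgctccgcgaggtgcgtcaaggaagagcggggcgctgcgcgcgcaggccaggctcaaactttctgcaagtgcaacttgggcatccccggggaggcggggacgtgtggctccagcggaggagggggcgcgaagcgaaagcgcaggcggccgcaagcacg
ZIC1 (chr3:147409115-147409364, plus): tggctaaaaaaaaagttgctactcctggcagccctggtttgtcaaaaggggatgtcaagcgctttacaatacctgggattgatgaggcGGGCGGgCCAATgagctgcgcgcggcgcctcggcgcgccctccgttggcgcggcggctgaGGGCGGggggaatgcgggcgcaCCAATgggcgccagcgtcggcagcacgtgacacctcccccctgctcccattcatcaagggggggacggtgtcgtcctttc
The upstream region of ZIC2 held 4 GC boxes, that of ZIC1 held 2 GC boxes and 2 CCAAT boxes, and that of ZIC5 held neither. Of 34943 windows of the same length and position in the table, 42.5% held GGGCGG and 32% held CCAAT on either strand. The letters TATAAA (or TTTATA) and CAGCAGG (or CCTGCTG), a core of the element that ZIC proteins bind, were absent from these 3 windows, against 10.8% and 8.48% of all windows that held them. All 3 were rich in G and C, at 75.6% for ZIC2, 70.4% for ZIC5 and 64.4% for ZIC1, where the median window had 58.0%. They held 31, 28 and 23 CG dinucleotides in the same order, against a median of 11. The window of ZIC4 overlaps an annotated ZIC4 exon and is not shown. It was not rich in G and C, at 42.8% with 9 CG dinucleotides, and held none of these motifs.

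The libraries held between 16441148 and 21871503 counts. The genes that mark iPSCs were present: 8 of 8 listed markers had a mean of at least 1 TPM in Cond 1, Cond 3 and Cond 4, and 7 in Cond 2. The exception was POU5F1, a gene with near-identical copies elsewhere in the genome whose reads are therefore uncertain, with a mean of 1.32 TPM in Cond 1 and 0.592 TPM in Cond 2. Definitive endoderm markers stayed at or under a summed 4.96 TPM in each library, with FOXA2 at 0 in all 12. The summed TPM of 6 neuron markers was 3.38 to 4.42 in Cond 1, 6.00 to 8.14 in Cond 2, 18.9 to 24.0 in Cond 3 and 3.93 to 5.14 in Cond 4. In Cond 2 these markers did not move together. Mean TPM of STMN2 went from 0.978 in Cond 1 to 4.40 in Cond 2, and that of DCX from 1.97 to 1.07. Of 4 tested there, edgeR called 1 higher and 1 lower (adjusted p under 0.05), against 10.8% and 10.1% of all genes. The summed TPM of 6 fibroblast markers, mostly collagen, was 290.5 to 315 in Cond 1, 202 to 252 in Cond 2, 536 to 573 in Cond 3 and 239.7 to 279 in Cond 4. In cultures measured in bulk, a change in the number of cells of a type and a change in RNA per cell cannot be told apart.

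ZIC2 was the most abundant of the 4 genes. Its TPM was 359.8, 365 and 350.0 in the 3 libraries of Cond 1, 447, 509 and 517 in Cond 2, 322, 293 and 289 in Cond 3, and 366, 380.3 and 384 in Cond 4. Each condition kept to its own range, with Cond 3 lowest, then Cond 1, Cond 4 and Cond 2, although the highest library of Cond 1, at 365, and the lowest of Cond 4, at 366, nearly touched. On counts, between 5054 reads (Cond 3) and 9557 reads (Cond 2) per library lay on ZIC2. By mean TPM it was 345th of 19986 protein-coding genes in Cond 1, 236th in Cond 2, 448th in Cond 3 and 323rd in Cond 4.

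ZIC5, its divergent neighbour, had the same order of conditions at a lower level. Its TPM was 94.7, 96.4 and 91.3 in Cond 1, 119.8, 126 and 133 in Cond 2, 90.9, 83.9 and 77.8 in Cond 3, and 106, 102 and 108 in Cond 4. The highest library of Cond 3, at 90.9, lay just under the lowest of Cond 1, at 91.3, and the other neighbours in the order were further apart. Between 1916 and 3329 reads per library lay on ZIC5. Its rank among protein-coding genes was 1747th in Cond 1, 1321st in Cond 2, 2012th in Cond 3 and 1522nd in Cond 4.

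ZIC1 and ZIC4 were near the floor of the measurement. ZIC1 had 2, 4 and 8 reads in the libraries of Cond 1, 31, 22 and 35 in Cond 2, 5, 3 and 3 in Cond 3, and 4, 2 and 5 in Cond 4. In TPM these were 0.0532, 0.124 and 0.20 in Cond 1, 0.899, 0.564 and 1.06 in Cond 2, 0.120, 0.0803 and 0.0828 in Cond 3, and 0.124, 0.0571 and 0.135 in Cond 4. Only the Cond 2 libraries stood apart, and the other 3 conditions overlapped each other. ZIC4 had 5, 1 and 8 reads in Cond 2, 0, 0 and 4 in Cond 4, and no read in any library of Cond 1 or Cond 3. A total of 0 reads allows up to 0.0538 counts per 1e6 counts (CPM) over the 3 libraries of Cond 1 and 0.0503 over those of Cond 3 (3 counts, counting error only), against 0.240 CPM in Cond 2. ZIC4-AS1, the antisense RNA inside the ZIC4 locus, had 0 reads in all 12 libraries.

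**Figure D1:**
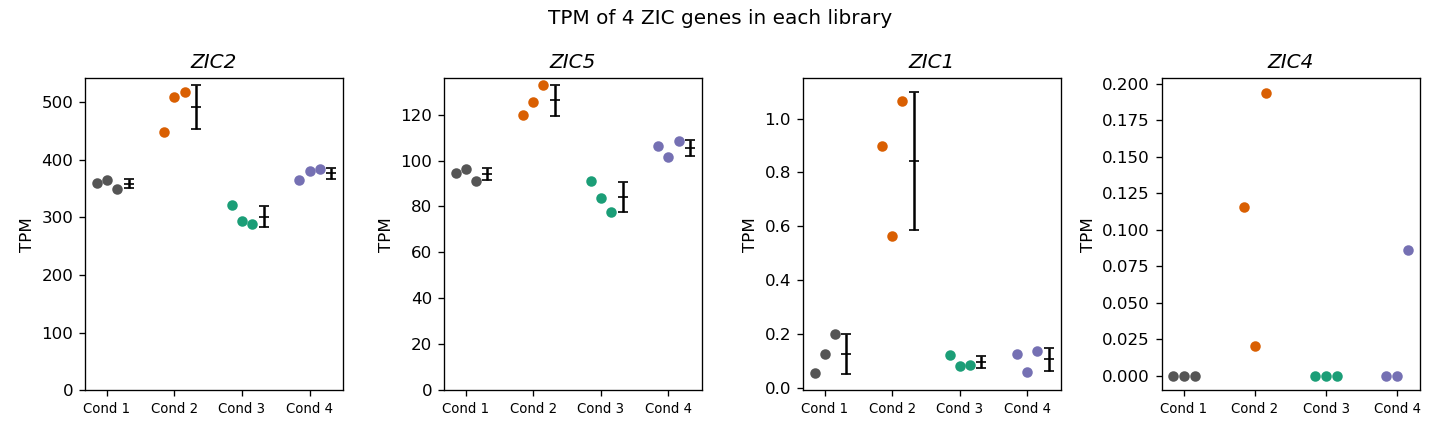
TPM (y axis, with its own scale for each gene) of ZIC2, ZIC5, ZIC1 and ZIC4 in the 12 libraries, by condition. The y axes start at 0 for ZIC2 and ZIC5 and just under 0 for ZIC1 and ZIC4. Points are libraries and bars are the mean ± SD of 3 libraries, left out for ZIC4. For each gene the 3 Cond 2 libraries have the highest mean, and for ZIC2 and ZIC5 the Cond 3 libraries lie lowest.

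Near-copies and overlaps touched a small share of these genes. Of the 31-base words in their annotated transcripts, 0.945% for ZIC2, 0.851% for ZIC5, 2.43% for ZIC1 and 4.14% for ZIC4 also occurred in transcripts of another gene, on either strand. The exons of ZIC1 and ZIC4, on opposite strands, shared 176 bases, which is 2.58% of the exonic bases of ZIC1 and 2.07% of those of ZIC4. The ZIC4 exons also shared 268 bases with ZIC4-AS1. The strand setting of the authors' counting is not given in the sources used here, so reads in those stretches could not be assigned to one strand, and the low counts of ZIC1 and ZIC4 are the ones such reads could touch.

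The first comparison asked which genes differed after culture in heated medium. ZIC2 and ZIC5 were both called higher in Cond 2 than in Cond 1, where 20.9% of the 17747 genes tested were called in either direction and 10.8% were called higher (edgeR quasi-likelihood test, adjusted p under 0.05). ZIC4 did not pass the filter on low counts. ZIC1 passed it only through its Cond 2 libraries, so that it had to differ, and its fold changes are given as a description without a test. ZIC2 averaged 358 ± 7.68 TPM (SD, n = 3) in Cond 1 and 491 ± 38.0 TPM in Cond 2. On the count scale, normalized by TMM, this was a log2 fold change of 0.37 (SE 0.052, edgeR adjusted p = 1.4e-05), or 1.29-fold. ZIC5 averaged 94.1 ± 2.60 TPM in Cond 1 and 126 ± 6.59 TPM in Cond 2. Its log2 fold change was 0.34 (SE 0.060, edgeR adjusted p = 1.9e-04), or 1.26-fold. The libraries of the 2 conditions did not overlap for either gene, and the exact two-sided permutation test gave p = 0.1, the smallest that 3 against 3 libraries allow. Neither gene was among the 4.34% of genes called past a 2-fold change.

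ZIC1 showed a wider gap. Its fitted log2 fold change in Cond 2 was 2.61 (SE 0.58), and 0.70 on log2(TPM + 1), a scale that compresses low values, from a mean of 0.126 ± 0.0734 TPM (SD, n = 3) to 0.843 ± 0.255 TPM. Summed over libraries this was 14 reads against 88, a CPM ratio of 6.02 with a 95% interval of 3.40 to 11.5 from counting error only. For ZIC4 the 14 reads of Cond 2 were 4.47-fold above a floor of 3 counts over the Cond 1 group. That ratio leaves out the counting error of the 14 reads, whose 95% interval was 7.65 to 23.5 reads. Of those 14 reads 8 came from Cond 2 replicate 3, and without it the ratio was 2.80-fold. ZIC1 at its Cond 2 level was still only 13058th of 19986 protein-coding genes by mean TPM.

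The second comparison set the differentiation medium against the control. ZIC2 and ZIC5 were lower in Cond 3 than in Cond 1, where 38.4% of all genes were called in either direction, 18.8% lower and 19.5% higher. ZIC2 averaged 301 ± 17.6 TPM (SD, n = 3) in Cond 3, and its log2 fold change was -0.28 (SE 0.053, edgeR adjusted p = 2.1e-04). ZIC5 averaged 84.2 ± 6.55 TPM, and its log2 fold change was -0.19 (SE 0.060, edgeR adjusted p = 0.016). Both decreases were under 2-fold, a size that 8.16% of genes passed. The call of ZIC5 rested on few libraries: without Cond 3 replicate 3 its log2 fold change was -0.14 with an adjusted p of 0.115 in edgeR, and limma on log2(TPM + 1) gave -0.16 with an adjusted p of 0.176. ZIC2 lost its call in limma on log2(TPM + 0.1), at -0.25 with an adjusted p of 0.123. As a description, the log2 fold change of ZIC1 was -0.44 (95% interval -1.88 to 1.01). At 11 reads against 14 that range was too wide to tell a decrease from an increase.

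Pipetting was the mildest of the changes. Neither ZIC2 nor ZIC5 was called in Cond 4 against Cond 1 by edgeR, DESeq2 or limma, and edgeR called 0.0282% of all genes. At an unadjusted p under 0.05 edgeR gave 1 of them. It was ZIC5, at a log2 fold change of 0.15 (SE 0.060, edgeR adjusted p = 0.790, and 0.018 before adjustment). Its 3 Cond 4 libraries, at 105 ± 3.46 TPM (SD, n = 3), all lay above the 3 of Cond 1. ZIC2, at 377 ± 9.61 TPM, had a log2 fold change of 0.059 with a 95% interval of -0.050 to 0.168 (edgeR adjusted p = 0.908). For ZIC1, again as a description, the log2 fold change was -0.27 (95% interval -1.72 to 1.18) at 11 reads against 14.

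The fourth comparison set Cond 3 against Cond 2 directly. Their media were given for different lengths of time, which this comparison cannot separate from the media themselves. ZIC2 and ZIC5 were at lower levels in Cond 3, in a comparison where 38.2% of genes were called in either direction, 19.2% lower and 19.0% higher. The log2 fold change was -0.64 for ZIC2 (SE 0.053, edgeR adjusted p = 1.9e-09), with the Cond 3 mean at 61.4% of the Cond 2 mean in TPM. It was -0.52 for ZIC5 (SE 0.060, edgeR adjusted p = 3.1e-07), with the Cond 3 mean at 66.8% of that of Cond 2. The fitted value for ZIC1, again in the comparison only because of its reads in Cond 2, was -3.04 (SE 0.60). ZIC4 had 0 reads in Cond 3, and its 14 reads in Cond 2 were 4.78-fold above a floor of 3 counts. Without Cond 2 replicate 3 the ratio was 3.00-fold, and neither value includes the counting error of the Cond 2 reads.

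**Figure D2:**
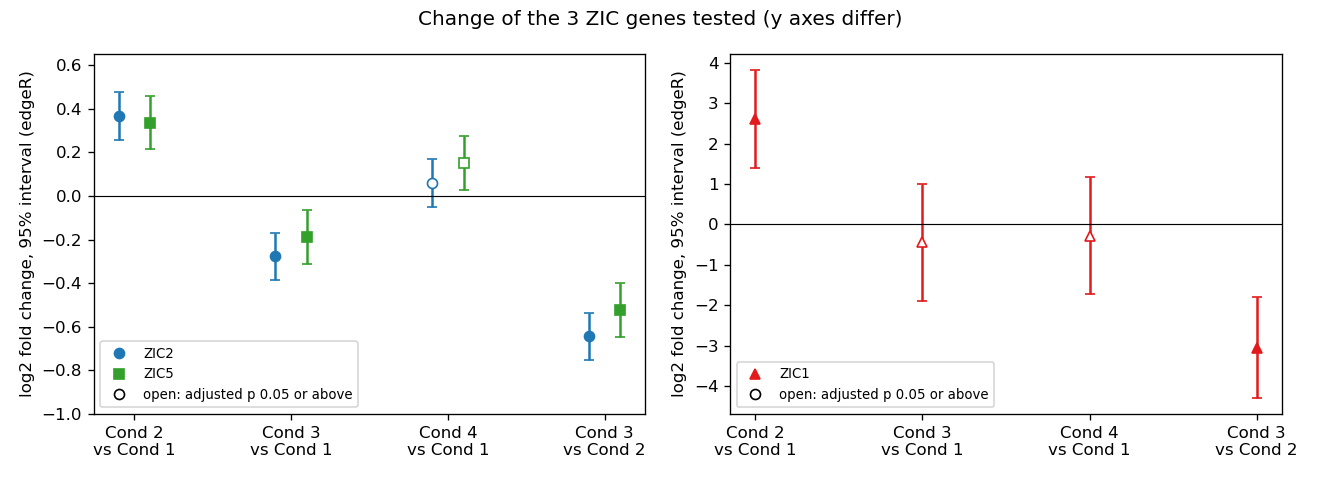
Log2 fold change from edgeR (y axis) for 4 comparisons (x axis), with 95% intervals as bars; ZIC2 and ZIC5 on the left and ZIC1 on the right, on different y axes. ZIC2 and ZIC5 sit above 0 in Cond 2 (0.37 and 0.34), below 0 in Cond 3 (-0.28 and -0.19) and open, that is not called, in Cond 4. ZIC1 is shown as a description, and its filled points are not read as calls.

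The sum of the 4 genes followed ZIC2. Their summed TPM was 453 ± 10.2 (SD, n = 3) in Cond 1, 618 ± 44 in Cond 2, 386 ± 23.8 in Cond 3 and 482 ± 10.1 in Cond 4. Relative to the Cond 1 mean, that of Cond 2 was 137%, that of Cond 3 85.2% and that of Cond 4 107%, each with non-overlapping libraries and an exact permutation p of 0.1. Without the correction for gene length, in CPM, the Cond 2 sum was 127% of that of Cond 1. The TPM scale itself ran higher in Cond 2, where the median of the same 17747 genes was 0.087 above Cond 1 on the log2 scale, compared with 0.00018 after TMM.

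The mix of the 4 transcripts moved little. ZIC2 made up 79.2% ± 0.0930 (SD, n = 3) of the summed TPM in Cond 1, 79.4% ± 0.692 in Cond 2, 78.2% ± 0.559 in Cond 3 and 78.1% ± 0.742 in Cond 4. ZIC5 made up 20.8%, 20.4%, 21.8% and 21.9% in the same order, and ZIC1 and ZIC4 together the remainder, under 1%. The ratio of ZIC2 to ZIC5 in TPM was 3.80, 3.79 and 3.84 in Cond 1, 3.73, 4.05 and 3.89 in Cond 2, 3.54, 3.50 and 3.72 in Cond 3, and 3.44, 3.74 and 3.54 in Cond 4. The ratio of Cond 2 overlapped that of Cond 1 (exact permutation p = 0.6). Those of Cond 3 and Cond 4 lay below it in all 3 libraries, by 0.088 and 0.093 on the log2 scale (exact permutation p = 0.1 for each). ZIC1 took 0.137% of the sum in Cond 2 and 0.0280% in Cond 1.

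**Figure D3:**
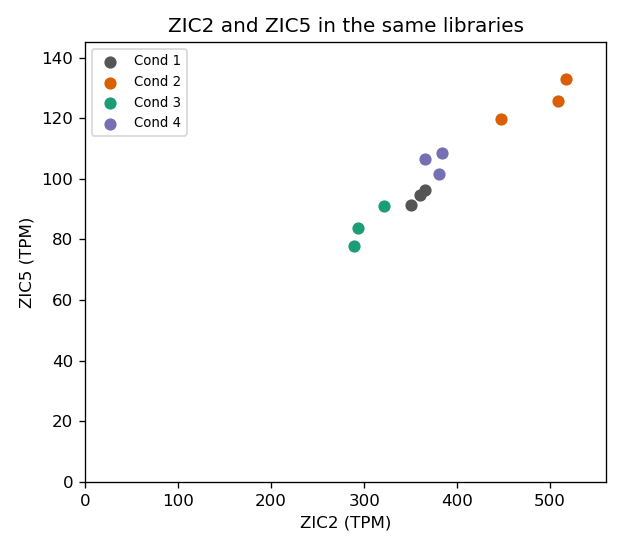
ZIC5 (y axis, TPM) against ZIC2 (x axis, TPM) in the 12 libraries, coloured by condition, with both axes from 0. The points lie along a line whose ZIC2 to ZIC5 ratio stays between 3.44 and 4.05, with Cond 3 at the lower left and Cond 2 at the upper right.

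The genes with the most similar profiles were looked up over the 12 libraries, as the smallest root-mean-square (RMS) difference of log2 CPM after each gene was centred on its mean. This is a description, because the libraries share conditions and depth. ZIC5 was the second closest of 12511 protein-coding genes to ZIC2, at an RMS difference of 0.0671, after RAB3B, a small GTPase of vesicle traffic, at 0.0513. PPP2CB, a catalytic subunit of protein phosphatase 2A, was the third, at 0.0681. ZIC2 was in turn the second closest to ZIC5, between PTBP3, an RNA-binding protein of splicing, at 0.0595 and UBE2E1, a ubiquitin-conjugating enzyme, at 0.0698.

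The RMS difference depends on the size of a change as well as its direction. ZIC1, which passed the filter only through Cond 2, therefore lay closest to genes far higher in Cond 2. The closest of 12512 were PRTG, a cell surface protein of the immunoglobulin superfamily, at an RMS difference of 0.417, TMEM88, a membrane protein of Wnt signalling, at 0.439, and GPC3, a heparan sulfate proteoglycan, at 0.450. Mean TPM of PRTG was 6.94 in Cond 1, 46.7 in Cond 2, 9.21 in Cond 3 and 7.89 in Cond 4, and that of GPC3 was 433, 1590.0, 459 and 436. ZIC2 was the 458th and ZIC5 the 686th closest to ZIC1, but both changed far less in Cond 2, which this measure alone sets apart. The profile of ZIC1 also carries the counting error of 2 to 35 reads per library.

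None of the tested neighbours of the ZIC pairs was called higher in Cond 2, where 10.8% of all genes were. Of 12 protein-coding genes that start within 1 Mb of a ZIC start, 9 were tested. In Cond 2 edgeR, DESeq2 and limma called 0 of them higher, with 0 at an unadjusted p under 0.05 as well. With 9 genes, 0 cannot be set apart from the share of all genes called higher. In the other direction edgeR called 4 lower, against 10.1% of all genes called lower. They were CLYBL, a mitochondrial lyase (log2 fold change -0.84), PLSCR1, a phospholipid scramblase (-0.39), TMTC4 (-0.35) and PCCA, a subunit of propionyl-CoA carboxylase (-0.24), and none passed 2-fold. In Cond 3, where 19.5% of all genes were called higher and 18.8% lower, 1 of the 9 was called higher and 3 lower, CLYBL at -0.59 and TMTC4 at -0.53 among them. AL355338.2, a long non-coding RNA that lies between ZIC5 and ZIC2, was looked up after its values were seen. Its TPM was 9.53, 15 and 13.0 in Cond 1, 8.31, 9.88 and 12.8 in Cond 2, and 12, 11.7 and 15.1 in Cond 3. These libraries overlapped, and the log2 fold change was -0.36 in Cond 2 (SE 0.286, edgeR adjusted p = 0.42) and 0.02 in Cond 3 (edgeR adjusted p = 0.964).

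The zinc finger relatives of the ZIC genes were next. Of 6 GLI and GLIS genes, all tested, 3 were called higher and none lower in Cond 2, where 10.8% of all genes were called higher and 10.1% lower, with a median log2 fold change of 0.73 against 0.00018 for all genes tested. In Cond 3 the count was again 3 and 0, against 19.5% and 18.8% of all genes, with a median of 0.44 against -0.0064. GLI3, mainly a repressor of Hedgehog targets, rose by 0.98 in Cond 2 and 0.48 in Cond 3 on the log2 scale. GLI2, the main activator, rose by 0.47 and 0.40. GLIS3 (2.62, to a mean of 0.625 TPM) was the third called in Cond 2 and GLI1 (0.37), itself a Hedgehog target, the third called in Cond 3. GLI2 and GLI3 were thus higher than in Cond 1 in both conditions, while ZIC2 and ZIC5 were higher in one and lower in the other.

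Genes of forebrain midline development, whose loss like that of ZIC2 is tied to holoprosencephaly, moved in both directions. Of 20 genes 18 were tested, and 11 were called higher and 3 lower in Cond 2 (median 0.24, against 10.8% and 10.1% of all genes), with 9 higher and 5 lower in Cond 3 (median 0.15, against 19.5% and 18.8%). SIX3, a homeobox gene of the forebrain, went from a mean of 2.39 TPM in Cond 1 to 158 TPM in Cond 2, a log2 fold change of 5.94 (SE 0.34, edgeR adjusted p = 7.5e-12), and had 2.70 TPM in Cond 3. FGF8, a secreted signal of the anterior margin of the neural plate, rose by 1.53 and 1.38 on the log2 scale in Cond 2 and Cond 3. PTCH1, the Hedgehog receptor, rose by 0.95 and 0.85. NODAL and its co-receptor gene TDGF1, which has near-copies in the genome, had log2 fold changes of -1.55 and -1.50 in Cond 2 and of -2.34 and -0.94 in Cond 3, all called.

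The left-right axis genes, another process that depends on ZIC and NODAL, numbered 10, with 6 tested. In Cond 2, 3 were called higher and 3 lower (median -0.038), against 10.8% and 10.1% of all genes. In Cond 3, 4 were called lower and none higher (median -0.84), against 18.8% and 19.5% of all genes. LEFTY1, an inhibitor of NODAL, had log2 fold changes of -1.74 in Cond 2 and -4.22 in Cond 3, and LEFTY2 of 0.95 and -0.75. NODAL and LEFTY1 were thus lower than in Cond 1 in both conditions, whereas GLI2 and GLI3 were higher in both.

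The anterior neural plate list was the one with the largest median in Cond 2 among the 8 lists. Of 13 genes 12 were tested, and 9 were called higher and 1 lower in Cond 2, with a median log2 fold change of 2.41 where 10.8% of all genes were called higher and 10.1% lower. LHX5, a LIM homeobox gene, went from 7.93 to 262 TPM (log2 fold change 4.97), FEZF1, a forebrain zinc finger repressor, from 5.99 to 128 TPM (4.36), and RAX, the retina and anterior neural fold homeobox gene, from 0.501 to 10.7 TPM (4.29). The gene called lower was SP8 (-1.18). In Cond 3, 4 were called higher and 1 lower, against 19.5% and 18.8% of all genes, with a median of 0.12. FEZF1 (3.33) and LHX5 (2.01) were higher there too, while SIX6, a homeobox gene of the eye field, was lower (-3.58, from 1.05 to 0.0781 TPM). Between Cond 3 and Cond 2 directly, 9 of the 12 were called lower in Cond 3 and 1 higher (median -2.04), against 19.2% and 19.0% of all genes.

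At the neural plate border and in the neural crest, where ZIC1 acts with PAX3, 11 of 15 genes were tested. In Cond 2, 6 were called higher and 2 lower (median 0.89), against 10.8% and 10.1% of all genes. Levels of DLX5, a homeobox gene of the border, went from 0.0694 to 13.7 TPM and those of DLX6 from 0 to 3.01 TPM, and TFAP2A, a border and surface ectoderm factor, went from 0.142 to 4.25 TPM. GBX2 fell by 4.17 on the log2 scale, from 7.15 to 0.426 TPM, and FOXD3, which serves both neural crest and pluripotent cells, fell by 2.08, from 50.6 to 12.6 TPM. PAX3 itself did not pass the filter, with means of 0.168 TPM in Cond 1 and 0.0836 TPM in Cond 2. In Cond 3, 3 were called higher and 3 lower, against 19.5% and 18.8% of all genes, with a median of 0.25 that became -0.02 when genes that never exceeded 3 counts in a group were set to a floor of 3 counts over the group. SOX9, a neural crest and glial factor, was higher in both conditions (0.89 and 1.33). TFAP2A is also among 7 amnion and surface ectoderm markers. Their summed TPM was 27.2 to 32.4 in Cond 1, 34.4 to 47.6 in Cond 2 and 32.9 to 38.1 in Cond 3. Single markers went both ways. Of 5 tested, edgeR called 3 higher and 1 lower against Cond 1, with the same numbers for Cond 2 and Cond 3. Mean TPM of GABRP, another of the 7, fell from 6.59 under Cond 1 to 0.293 under Cond 2 and 2.57 under Cond 3. The part of these markers in the neural plate border values was not tested.

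The roof plate and dorsal hindbrain, where ZIC1 and ZIC4 are best known, were barely represented. Of 8 genes 6 were tested, with 2 called higher in Cond 2 and none lower (median 0.57, against 10.8% and 10.1% of all genes). In Cond 3, 1 was called higher and 1 lower (median 1.01), near the 19.5% and 18.8% of all genes. LMX1A, a roof plate homeobox gene, reached a mean of 1.20 TPM in Cond 2 (log2 fold change 3.37) and BARHL1, a homeobox gene of cerebellar granule neurons, 2.30 TPM. The 2 I-mfa genes, whose proteins bind ZIC proteins and hold them in the cytoplasm, were both expressed. MDFI averaged 56.8 TPM in Cond 1, 66.3 in Cond 2 and 88.0 in Cond 3, and was called only in Cond 3 (log2 fold change 0.60). MDFIC was called lower in both, by log2 fold changes of -0.45 and -0.87.

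**Figure D4:**
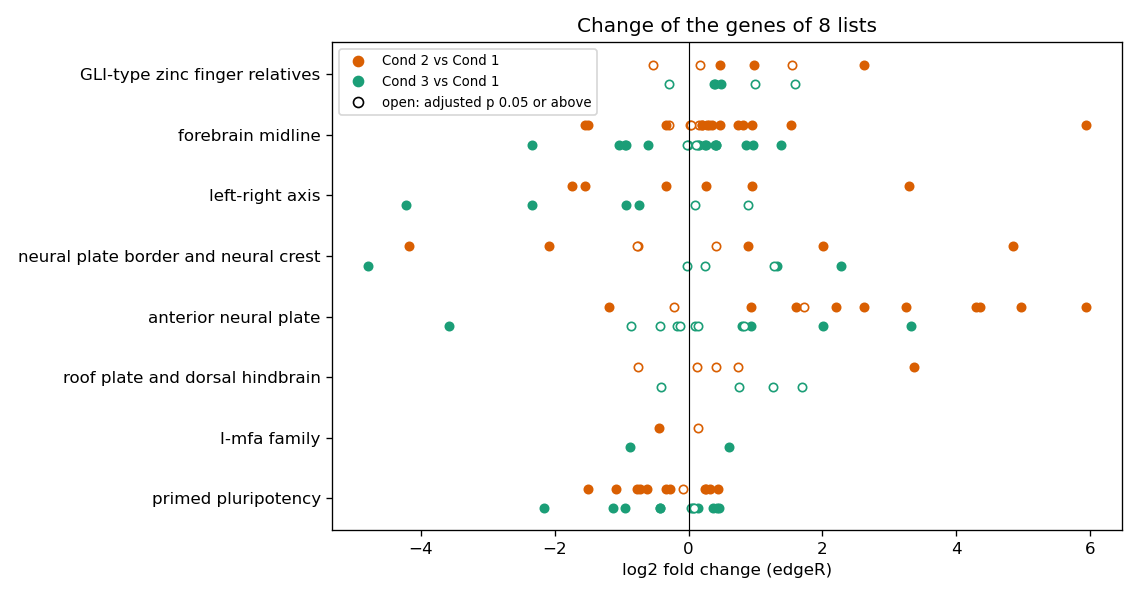
Log2 fold change from edgeR (x axis) of the single genes of 8 lists (rows) in Cond 2 and Cond 3 against Cond 1; filled points were called at an adjusted p under 0.05. Genes that never exceeded 3 counts in a group are left out. The anterior neural plate row has 9 filled points above 0 in Cond 2.

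Primed pluripotency genes, with which ZIC2 is co-expressed in iPSCs, went both ways. All 12 were tested, and 4 were called higher and 7 lower in Cond 2 (median -0.31, against 10.8% and 10.1% of all genes), with 4 higher and 5 lower in Cond 3 (median 0.054, against 19.5% and 18.8%). SOX2 rose by 0.44 in Cond 2 and 0.45 in Cond 3 on the log2 scale. NANOG, which also has near-copies, fell by 1.09 and 2.16, and SFRP2, a secreted Wnt modulator, fell by 0.78 and 1.13. Both were lower in Cond 2, where ZIC2 and ZIC5 were higher, and lower again in Cond 3, where ZIC2 and ZIC5 were also lower. In Cond 4, where edgeR called 0.0282% of all genes, no call among the list genes was to be looked for. None of the 67 tested genes of the 8 lists was called by edgeR, DESeq2 or limma on log2(TPM + 1). At an unadjusted p under 0.05 there were 4, 4 and 3, about what that threshold passes among unchanged genes.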

How the data were processed

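RNA-Seq libraries (NEBNext poly(A) selection, Ultra II Directional kit) were analysed from 12 wells. The authors' methods name HISAT2 for alignment of the trimmed reads (GRCh38) and featureCounts for counting. The authors deposited raw counts per gene and TPM. The settings for strand and for reads with several matches are not given in the sources used here. Of 58580 count lines, 5 held no whole gene row and were left out.

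Counts were fitted in edgeR 4.0.16 (quasi-likelihood test, TMM, filterByExpr, R 4.3.3) in one fit over 12 libraries, with Benjamini-Hochberg adjustment over 17747 genes. DESeq2 1.42.0 and limma 3.58.1 served as alternatives. On data simulated for Cond 2 against Cond 1 with one spread for all genes, edgeR recovered 94 of 100 genes changed 2-fold. It made 16 false calls among 16558 genes. Changes as small as those of ZIC2 and ZIC5, or in genes as low as ZIC1 and ZIC4, were not simulated. Permutation tests were exact and two-sided. Same-numbered libraries had correlations of -0.0131 to 0.0379 in their deviations from the condition means, so the numbers were not used as pairs.

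Members and gene lists were chosen with earlier results of these data known. Lists were described by counts and medians, without a test. The text names the ZIC genes, the 3 genes closest to each, neighbours within 1 Mb, and list genes tied to ZIC biology. It also names some of the list genes called past 2-fold with a mean of at least 1 TPM. That rule was limited to the largest changes of each list and comparison. SP8, SOX2, SOX9, LEFTY2, GLIS3 and PAX3 were named after their values were seen where that rule did not reach them. One further row with a ZIC name is not reported here. Exons and transcripts were from GENCODE release 44, upstream sequences from RefSeq. Counting intervals cover counting error only.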

Additional observations from a re-analysis of the deposited data

Results flagged for a closer look

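The effect of the culture on ZIC2 and ZIC5 differed between Cond 2 and Cond 3, each set against the same Cond 1 libraries, by the test of Cond 3 against Cond 2. For ZIC2 the difference was -0.64 on the log2 scale (edgeR adjusted p = 1.9e-09), from a log2 fold change of 0.37 in Cond 2 to -0.28 in Cond 3. For ZIC5 it was -0.52 (edgeR adjusted p = 3.1e-07), from 0.34 to -0.19. For both, the 3 Cond 3 libraries all lay below the 3 Cond 2 libraries. The exposures also differed in length, so medium and duration cannot be told apart here. ZIC1 had the same sign, at -3.04 on 88 reads in Cond 2 and 11 in Cond 3, but it passed the filter on low counts only through Cond 2 and this value is a description.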

How the results depend on the processing

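In Cond 2 against Cond 1 and in Cond 3 against Cond 2, ZIC2 and ZIC5 kept their direction and their call under every alternative run. ZIC1, in these comparisons only through its Cond 2 reads, went from 2.61 to 0.70 in the first and from -3.04 to -0.74 in the other with limma on log2(TPM + 1), under 2-fold. In Cond 3 against Cond 1, limma called 1 ZIC gene on log2(TPM + 1), 0 on log2(TPM + 0.1) and 1 among genes that reached 1 TPM in every library. ZIC5 was then at -0.16 each time (adjusted p = 0.176, 0.347 and 0.0926), and ZIC2 at -0.25 on log2(TPM + 0.1) (adjusted p = 0.123). The summed Cond 2 level of the 4 genes was 127% of Cond 1 in CPM.

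Leaving out each library in turn, ZIC genes called in Cond 3 ranged from 1 to 2, and ZIC5 from -0.24 to -0.14, the latter without Cond 3 replicate 3. As a description, ZIC1 ranged from -0.81 to 0.10 in Cond 3, turning positive without Cond 1 replicate 3. In Cond 4 it ranged from -0.64 to 0.27, turning positive without Cond 1 replicate 3 (0.27) or Cond 4 replicate 2 (0.016). In an alternative added after seeing the data, the ratio of ZIC4 in Cond 2 to the floor of 3 counts was recomputed. It ranged from 2.80 to 6.60 against Cond 1 and from 3.00 to 7.06 against Cond 3, lowest without Cond 2 replicate 3. With the replicate number as a block, ZIC2 and ZIC5 were called in Cond 2 and Cond 3 against Cond 1 and in Cond 3 against Cond 2. Neither was called in Cond 4, and ZIC2 in Cond 2 was at 0.37. The block changed no call of ZIC2 or ZIC5.

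Counts over all genes moved more. For Cond 2, Cond 3 and Cond 3 against Cond 2, limma on log2(TPM + 0.1) called 1602, 3796 and 4056 genes, against 3701, 6811 and 6777 with edgeR. Past 2-fold, 770, 1449 and 1557 genes became 405, 663 and 763 with edgeR at a TPM of at least 1, 419, 785 and 896 with limma on log2(TPM + 1), and 269, 479 and 544 with both that scale and that filter. For Cond 4, 5 called genes became 12 (DESeq2), 52 (no filter on low counts), 21 (limma, log2(TPM + 0.1)), 2 (limma, TPM of at least 1) and 8 (the 6 libraries alone). Past 2-fold, 3 became 14, 21 and 1 (no filter, limma on log2(TPM + 0.1), limma with a TPM of at least 1). The cause was not tested. Depth limits ZIC1 and ZIC4, at 35 reads or fewer per library.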
